A study of Mus musculus with 24 samples.

Results

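The 36 genes described here serve the antioxidant defence of the cell: the NRF2 regulators, NRF2 target genes, glutathione enzymes, peroxiredoxins, catalase and superoxide dismutases, sources of NADPH, glutathione transferases and the ferritin chains. They were chosen by symbol, with earlier results of these data known. Where several exon rows shared a symbol, the row with the highest count total was kept. All 36 were found among 29758 symbols, and all 36 were among the 15719 genes that passed the filter on low counts. RNA was sequenced from whole back skin of wild type male C57BL/6NCrl mice, about 8 weeks old, with hair follicles at rest (telogen). Light and dark phases lasted 12 h each, and regular chow was open for 4 h a day over 18 to 21 days. ZT counts hours from lights on. Food was open at ZT0-4 for the ED group, ZT5-9 for MD and ZT12-16 for EN, so every library analysed here comes from mice under restricted feeding. Each of the 3 groups had 8 libraries, taken every 4 h from ZT0 to ZT28, and each library was 1 pool of RNA from 2 to 4 animals. Errors and p-values thus measure how far single pools lie from a fitted curve. Nothing in the labels says that pools of different times came from separate mice.

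NRF2, encoded by Nfe2l2, is a transcription factor that KEAP1 holds in the cytoplasm and marks for destruction. When electrophiles or oxidants react with KEAP1, NRF2 enters the nucleus and, with small MAF proteins, binds antioxidant response elements near genes of glutathione synthesis, quinone reduction, thioredoxin recycling and NADPH supply. Glutathione transferases join glutathione to reactive compounds, and in skin these systems act against oxidants made by light, air and metabolism. Feeding supplies glucose to the pentose phosphate pathway, in which PGD reduces NADP to NADPH, which glutathione reductase and thioredoxin reductase consume.

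Exon totals ranged from 13222667 to 26316851 reads per library. The summed level of 6 adipocyte markers was 545 to 973 CPM (counts scaled to library size) in MD, against 1123 to 1726 in ED and 1154 to 2100 in EN, with no overlap between MD and either of the others. All 6 fibroblast markers were detected (medians of 36530 CPM in MD, 56230 in ED and 59520 in EN), as were all 6 keratinocyte markers (8063, 8496 and 8458). Hair shaft keratins stood apart in the EN ZT0 library (1500 CPM) and in the ED ZT24 library (712 CPM), where the group medians were 5.25 and 5.54. Whether all animals of these pools had hair follicles at rest, as stated above, was not tested. In bulk tissue, fewer cells of a type and less RNA per cell cannot be told apart. The labels also carry a code, L1 to L8, whose meaning they do not state. Each code covers 3 libraries, and 6 of the 8 codes hold neighbouring sampling times of 1 feeding group. L3 joins MD ZT24 and ZT28 with ED ZT0, and L6 joins ED ZT28 with EN ZT0 and ZT4. Code, group and time can be told apart only in part, and fits with the code as a term are given beside the results they change.

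Promoter sequence around the antioxidant response element is shown first, since NRF2 is known to act through this element. RefSeq promoter entries (GRCm38.p6, 250 bases before to 50 after a start) were matched for 30 of the 36 members, in 38 entries. The core of the antioxidant response element was searched as TGACNNNGC on both strands, and the E-box of clock proteins as CACGTG on both strands. The element core was in 9 of the 38 member entries, each of a different member, and in 12.4% of all 32851 promoters of the same length. The E-box was in 0 of the 38 entries and in 7.15% of all promoters, so no matches of the 2 motifs overlapped. The cores of 8 of these members are printed below on the strand of its gene, with 10 bases on either side and the core in capitals. A core that begins with GC is the reverse strand of the motif.
Gsta3 (chr1:21240454-21240482, plus strand): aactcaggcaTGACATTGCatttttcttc
Pgd (chr4:149166061-149166089, minus strand): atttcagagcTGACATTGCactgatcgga
Nfe2l2 (chr2:75704885-75704913, minus strand): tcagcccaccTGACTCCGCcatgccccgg
Srxn1 (chr2:152105542-152105570, plus strand): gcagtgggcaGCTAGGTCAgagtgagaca
Txnrd1 (chr10:82859104-82859132, plus strand): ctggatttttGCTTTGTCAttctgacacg
Gclm (chr3:122245413-122245441, plus strand): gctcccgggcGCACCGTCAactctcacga
Prdx1 (chr4:116685456-116685484, plus strand): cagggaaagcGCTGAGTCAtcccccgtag
Sod1 (chr16:90220696-90220724, plus strand): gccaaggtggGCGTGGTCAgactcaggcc
Gsta3 and Pgd, whose exon reads are described below by time since food, hold the same 9 letters, TGACATTGC. In Gsta3 the core begins 121 bases before the start, and in Pgd it begins 3 bases after the more downstream of its 2 annotated starts. That Pgd start lies inside the annotated gene (chr4:149149991-149166771, minus strand), so the Pgd match is within the gene and not upstream of it. A match is a description of letters and says nothing of binding in skin. The Gsta3 stretch lies on the plus strand at chr1:21240335-21240584, and the stretch before the upstream start of Pgd on the minus strand at chr4:149166706-149166955, with no match in it.
Gsta3: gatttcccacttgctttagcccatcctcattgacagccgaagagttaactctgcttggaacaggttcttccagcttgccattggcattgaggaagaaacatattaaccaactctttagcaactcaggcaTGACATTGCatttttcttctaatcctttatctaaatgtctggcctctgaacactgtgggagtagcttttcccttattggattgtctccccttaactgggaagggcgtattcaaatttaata
Pgd: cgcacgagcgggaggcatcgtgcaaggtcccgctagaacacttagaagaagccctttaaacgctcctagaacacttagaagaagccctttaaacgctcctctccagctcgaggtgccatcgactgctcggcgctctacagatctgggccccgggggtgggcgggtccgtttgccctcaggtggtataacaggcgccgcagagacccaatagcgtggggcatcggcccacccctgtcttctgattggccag

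Gsta3 had the widest daily swing among the members that passed a rhythm test, and its fitted exon peak fell 4.48 to 5.79 h after food was opened in each feeding group, with a rhythm that passed in EN alone. It encodes an alpha class glutathione transferase and lies on chromosome 1 from 21240589 to 21265661 (GRCm38, plus strand). All 36 members matched 1 annotated gene each. Another gene overlaps 5 of them on the same strand and 12 on the other strand, and for Gss, the glutathione synthetase gene, antisense reads were 276% as many as exon reads. In ED the exon level from ZT0 to ZT28 was 26.5, 26.4, 32.4, 24.8, 16.7, 20.9, 23.1 and 32.1 CPM. In MD it was 12.3, 22.4, 22.6, 24.9, 13.7, 14.9, 9.77 and 16.7 CPM, and in EN 21.8, 15.5, 14.9, 46.4, 55.0, 36.7, 28.05 and 15.2 CPM. The EN libraries of ZT12, ZT16 and ZT20 were the 3 highest of all 24, and the MD library of ZT24 was the lowest. Counted from the opening of food, the fitted peak came at 5.79 ± 1.25 h (ED), 4.48 ± 0.846 h (MD) and 4.59 ± 0.522 h (EN), with standard errors over the 8 libraries of a group. On the log2 scale the amplitude, from mean to peak, was 0.39 ± 0.132 (ED), 0.57 ± 0.134 (MD) and 0.96 ± 0.129 (EN).

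**Figure D1:**
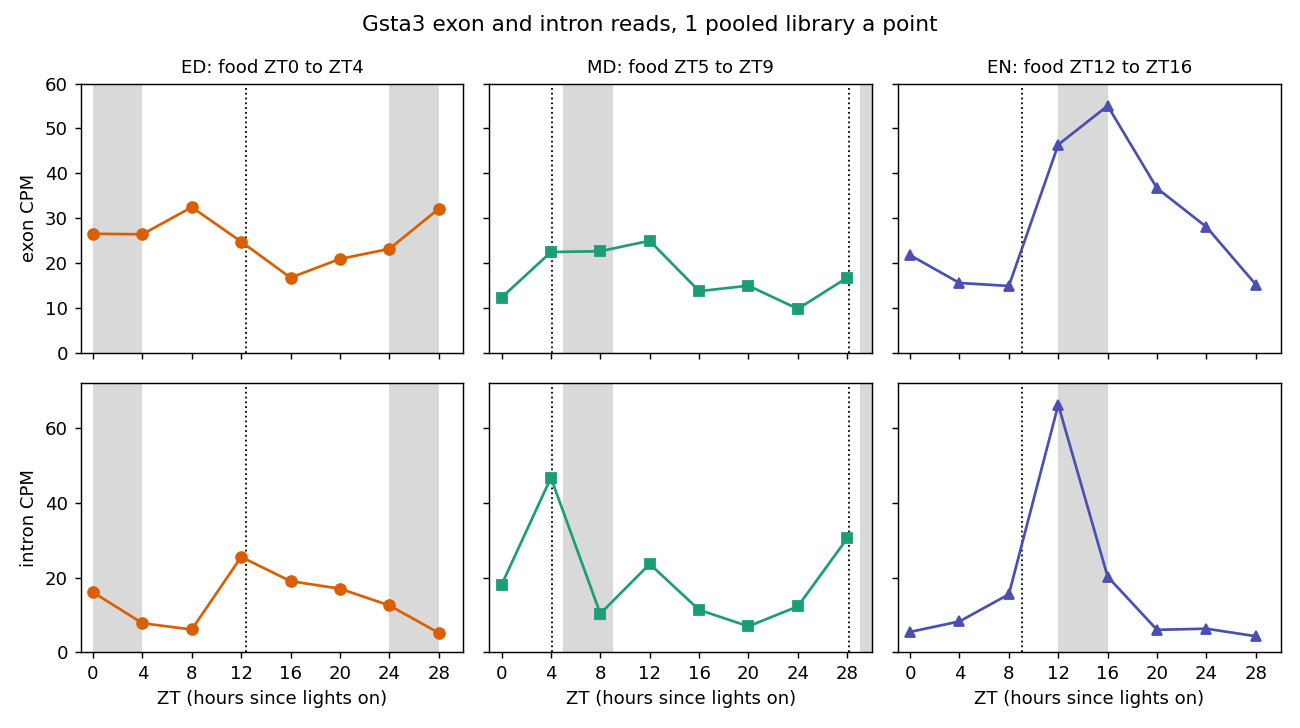
Gsta3 exon CPM (top) and intron CPM (bottom) against ZT in hours, 1 pooled library a point, by feeding group; grey bands are the hours with food and dotted lines the fitted peak of the clock gene Dbp. In EN exon reads were highest at ZT16 (55.0 CPM) and intron reads at ZT12 (66.2 CPM), and in ED exon reads were highest at ZT8 (32.4 CPM) and intron reads at ZT12 (25.5 CPM).

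Within single groups, few members had a rhythm. In EN, 2 of 36 passed (1.06% of all genes tested did): Gsta3 (edgeR's quasi-likelihood test, Benjamini-Hochberg adjusted p = 0.000131) and Nqo1. In ED, Pgd alone passed, at 1 of 36 (0.719% of all genes). In MD, Txnrd1 alone passed, at 1 of 36 (0.942% of all genes), and Gsta3 did not (adjusted p = 0.0526; 0.00500 by DESeq2 and 0.0440 by limma on RPKM). At an unadjusted p under 0.05 the ED test had 8 members (22.2%), the MD test 7 (19.4%) and the EN test 9 (25%), against 14.9%, 15.7% and 10.8% of all genes. Gsta3 in EN still passed with the L code as a term (adjusted p = 0.0244), and Pgd, Nqo1 and Txnrd1 did not (adjusted p = 1, 1 and 0.519). The rhythm of Gsta3 differed between EN and ED (adjusted p = 0.000686; 1 of 36 members against 0.401% of all genes) and between EN and MD (adjusted p = 0.00255; 1 of 36 against 0.350%). Both differences passed without any 1 library, and neither passed with the L code as a term (adjusted p = 1 and 0.145). Between MD and ED 0 members passed by edgeR (7 at an unadjusted p under 0.05, or 19.4% against 11.7% of all genes; 0 by DESeq2), and 0.350% of all genes did.

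Exon reads of all groups were then laid on a single time scale, to ask whether 1 curve served the 3 groups. Gsta3 had been named as a gene that follows food before these tests, with earlier results of these data known. Its values on food time and ZT here thus describe it and are not independent support. In hours since food was opened, Gsta3 had a shared rhythm, peaking at 4.77 ± 0.534 h with a log2 amplitude of 0.63 ± 0.0892 (adjusted p = 0.000335, with a threshold of 0.05), and Pgd had one of 0.35 ± 0.0682 with a peak at 8.86 ± 0.736 h (adjusted p = 0.00778). These 2 of 36 members passed, against 1.29% of all genes. The shared food time curve took 72.6% of the variation of Gsta3 within groups, against 13.5% for a curve shared in ZT and 26.9% for one shared in clock time. Clock time is counted from the fitted peak of Dbp, a direct output of the clock, which was at ZT 12.4 for ED, ZT 4.11 for MD and ZT 9.02 for EN, as estimated from the same libraries. No error of these peaks is given. In MD and EN the Dbp peak came shortly before food was opened (ZT5 and ZT12), and in ED long after (ZT0). Food time and clock time thus differ mostly in how they place ED. There the exon rhythm of Gsta3 did not pass by edgeR (adjusted p = 0.215). Gsta3 departed from a rhythm shared in ZT (adjusted p = 0.000438), as did Pgd (adjusted p = 0.0472), which makes 2 of 36 members against 0.999% of all genes. Departure from the food time rhythm was found for 0 of 36 members by edgeR (1.32% of all genes). At an unadjusted p under 0.05 there were 9 members, or 25% against 14% of all genes. Gsta3 was among these 9 (edgeR unadjusted p = 0.0182, adjusted p = 0.255), and its fitted amplitude ran from 0.39 in ED to 0.96 in EN. The lack of a call thus does not show that 1 curve served its 3 groups. The same holds for Pgd, with an amplitude of 0.54 in ED, 0.32 in MD and 0.19 in EN. The rhythm of Pgd did not pass by edgeR in MD or EN (adjusted p = 0.150 and 0.718). DESeq2 called 3 members, Prdx6, Txnrd1 and Nqo1, and its share of all genes is not given. With the L code as a term, the food time rhythm of Gsta3 did not pass (adjusted p = 0.0784), the one in clock time did (adjusted p = 0.0380), and that of Pgd in food time did not (adjusted p = 0.580). The departure of Gsta3 from ZT passed with that term (adjusted p = 0.0210). The food time calls of Gsta3 and Pgd and the ZT departure of Gsta3 passed without any 1 library, while the ZT departure of Pgd did not pass without any 1 of 18 libraries.

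Intron reads of Gsta3 had their highest levels at other times than exon reads. As background, such reads come mostly from RNA that has not yet been spliced. In ED the intron level from ZT0 to ZT28 was 16.1, 7.76, 6.09, 25.5, 19.02, 17.0, 12.5 and 5.18 CPM. In MD it was 18.0, 46.7, 10.3, 23.6, 11.3, 6.94, 12.3 and 30.5 CPM, and in EN 5.44, 8.25, 15.5, 66.2, 20.2, 5.99, 6.30 and 4.28 CPM, here scaled to intron reads. The highest library of each group was ED ZT12, MD ZT4 and EN ZT12, each within 3 h of the fitted Dbp peak of its group. These levels rest on 37 to 708 intron reads per library, and the exon levels on 226 to 955 exon reads.

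At 3 to 8 h after food was opened, intron reads of Gsta3 were lower than at 19 to 24 h, while its exon reads were not. Intron reads were at 11.3 ± 7.50 CPM after food (SD, 7 libraries) and 26.1 ± 18.7 CPM at 19 to 24 h (SD, 9 libraries), a log2 difference of -1.55 ± 0.268 in a model with group and time of day (adjusted p = 0.000249). Exon reads were at 32.9 ± 10.9 against 21.4 ± 10.8 CPM, a log2 difference of 0.60 ± 0.237 that did not pass (adjusted p = 0.101), with a positive difference in 3 of 3 groups. By edgeR it was 0.57, and 0.32 to 0.75 with 1 library left out, lowest without EN ZT8. The difference between the intron and the exon change was tested itself, in limma on log2 intron CPM minus log2 exon CPM of each library. It was -2.15 ± 0.232 for Gsta3 (adjusted p = 0.000252), the only 1 of 35 members with both kinds of rows to pass, and 0.592% of all genes passed. In clock time, intron reads had a shared log2 amplitude of 1.07 ± 0.203 with a peak 3.38 ± 0.727 h after that of Dbp (adjusted p = 0.000813). That curve took 59.6% of the variation within groups, against 26.9% for food time and 18.9% for ZT. Clock time and food time differ mostly in how they place ED, where the intron rhythm of Gsta3 did not pass. Intron reads departed from the food time rhythm (adjusted p = 0.0244) and from the ZT rhythm (adjusted p = 0.0238). In EN alone, intron reads peaked at ZT 12.4 with a log2 amplitude of 1.57 ± 0.331 (adjusted p = 0.00543), which did not pass without EN ZT12 (adjusted p = 0.453). The intron tests other than those of food time and of the change after food were added after the values had been seen.

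**Figure D2:**
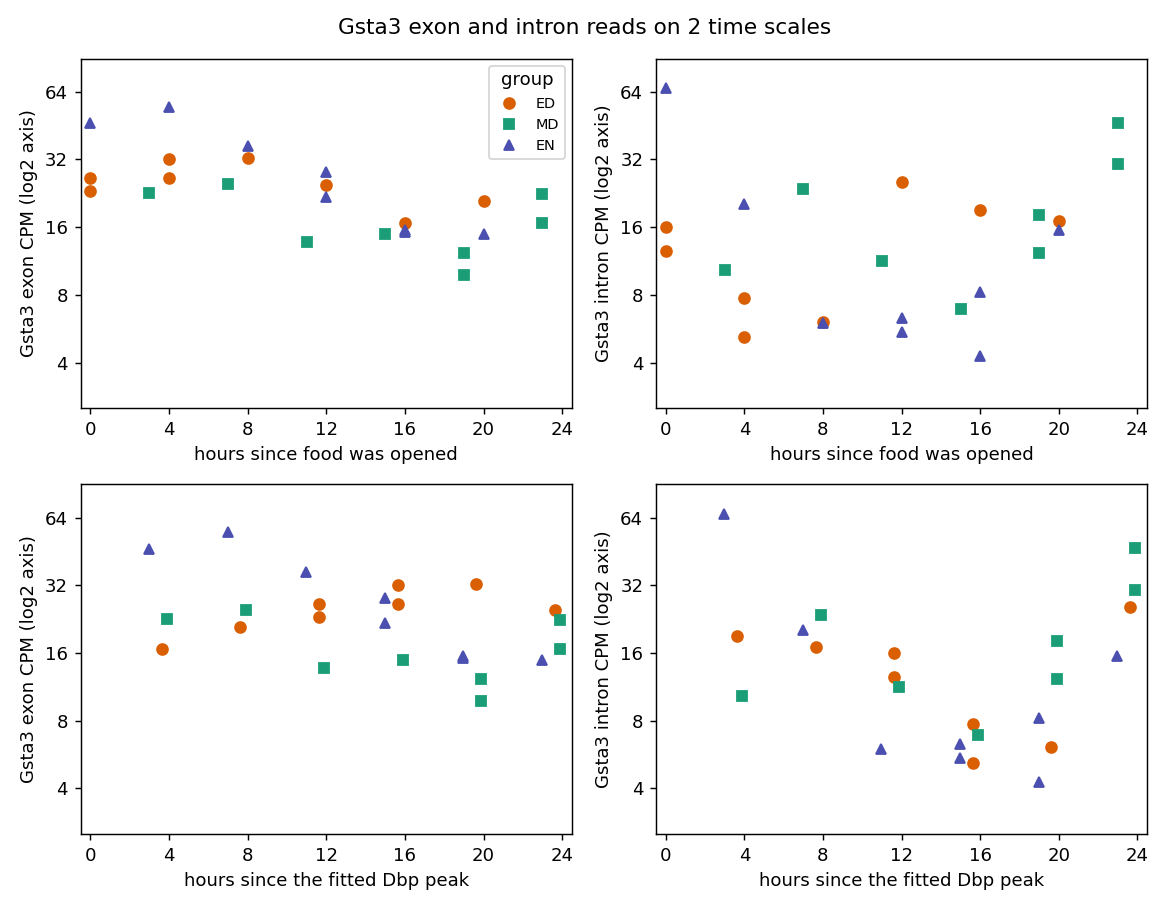
Gsta3 exon CPM (left) and intron CPM (right) on a log2 axis, 1 pooled library a point, against hours since food was opened (top) and hours since the fitted Dbp peak of the group (bottom). The food time rhythm took 72.6% of exon variation within groups and 26.9% of intron variation, and the clock time rhythm 26.9% and 59.6%. The time scales differ mostly in how they place ED.

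Single libraries bear on the intron result. EN ZT12 held the highest Gsta3 intron level and also the highest adipocyte marker sum, 2100 CPM, whose part in the result was not tested. Without EN ZT12 the intron departures from food time and from ZT did not pass, with adjusted p-values of up to 0.131 and 0.0968 over the libraries left out. The departure from food time was also lost with sampling time as a block (adjusted p = 0.574), without the second day (0.250) and without ED ZT12, and that from ZT without MD ZT4, MD ZT28 or ED ZT8. The clock time rhythm of intron reads passed without any 1 library (adjusted p up to 0.00725), as did the change after food (log2 -1.80 to -1.45 by edgeR). Neither passed with the L code as a term (adjusted p = 0.181 and 0.126), nor did the difference between intron and exon (-1.73, adjusted p = 0.352). An annotated gene on the other strand, Gm28836, overlaps Gsta3, and the stranded table counts antisense reads apart: they were 8.09% as many as exon reads, with the highest level, 9.94 CPM of exon reads, in EN ZT12.

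Pgd, which encodes 6-phosphogluconate dehydrogenase, was the member that rose after food. Its exon level from ZT0 to ZT28 was 45.1, 56.5, 87.9, 82.5, 54.4, 39.4, 55.2 and 75.7 CPM in ED, and 38.8, 38.2, 53.2, 80.3, 43.2, 62.3, 45.3 and 43.8 CPM in MD. In EN it was 57.2, 59.8, 47.9, 49.8, 61.6, 64.9, 63.0 and 59.2 CPM. The 3 highest libraries were ED ZT8, ED ZT12 and MD ZT12, 7 to 12 h after food was opened, and the EN libraries lay within a narrower range than either other group. At 3 to 8 h after food the level was 68.6 ± 12.9 CPM (SD, 7 libraries), against 44.8 ± 5.62 CPM at 19 to 24 h (SD, 9 libraries). The log2 difference was 0.61 ± 0.107 (adjusted p = 0.00105) and positive in 3 of 3 groups. Pgd was the 1 of 36 members that was higher, where 2.39% of all genes were higher and 2.46% lower, and 0 members were lower by edgeR. At an unadjusted p under 0.05 there were 4 members, 11.1% of them, against 22.0% of all genes. DESeq2 also called 1 member higher and 0 lower. Intron reads of Pgd rose as well, from 16.4 ± 3.08 to 23.2 ± 6.31 CPM (log2 difference 0.57 ± 0.139, adjusted p = 0.00812). With the L code as a term the exon difference was 0.62 and did not pass (adjusted p = 0.169). The keratinocyte marker sum was 8314 to 9411 CPM after food and 6730 to 8488 CPM before it, and its part in the result was not tested.

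Taldo1 and the regulators moved little after food. Taldo1, the transaldolase gene of the pentose phosphate pathway, was at 127 ± 21.6 against 117 ± 21.3 CPM (log2 difference 0.05 ± 0.0899, adjusted p = 0.768). Nfe2l2 ranged from 58.6 to 63.9 CPM in ED (median 60.7), from 59.97 to 84.0 CPM in MD (median 68.0) and from 55.6 to 69.5 CPM in EN (median 60.9). Its 3 highest libraries were all of MD (ZT8, ZT0 and ZT28), and the groups overlapped. Keap1 ranged from 40.4 to 48.8 CPM in ED (median 47.0), from 36.5 to 56.7 CPM in MD (median 45.5) and from 42.3 to 52.1 CPM in EN (median 48.8). All groups overlapped. Their log2 differences after food were -0.11 ± 0.0654 (adjusted p = 0.380) and 0.09 ± 0.0839 (adjusted p = 0.577).

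Among the 6 members placed here under the role of NRF2 target (Nqo1, Hmox1, Srxn1, Txnrd1, Gclc and Gclm), none passed the food test on exon rows by edgeR. This role is a label, and members under other roles, such as Pgd among the sources of NADPH, can be NRF2 targets too. Hmox1, which encodes heme oxygenase 1, was at 72.7, 161, 74.0, 76.6, 45.5, 93.4, 78.5 and 167 CPM from ZT0 to ZT28 in MD. In ED it ranged from 64.5 to 123 CPM (median 88.8) and in EN from 61.9 to 122 CPM (median 74.8). The 2 highest libraries were MD ZT4 and MD ZT28, the same time of day, 1 h before food. Its exon log2 difference after food was -0.50 ± 0.248 (adjusted p = 0.133), with 2 of 3 groups lower, and its intron log2 difference was -0.65 ± 0.224 (adjusted p = 0.0361), a call that did not hold without any 1 of 8 libraries. Srxn1, the sulfiredoxin gene, had 0.30 ± 0.194 (adjusted p = 0.254). Gclc and Gclm, the subunits of the enzyme that limits glutathione synthesis, had -0.16 ± 0.0759 (adjusted p = 0.235) and 0.07 ± 0.0856 (adjusted p = 0.713).

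**Figure D3:**
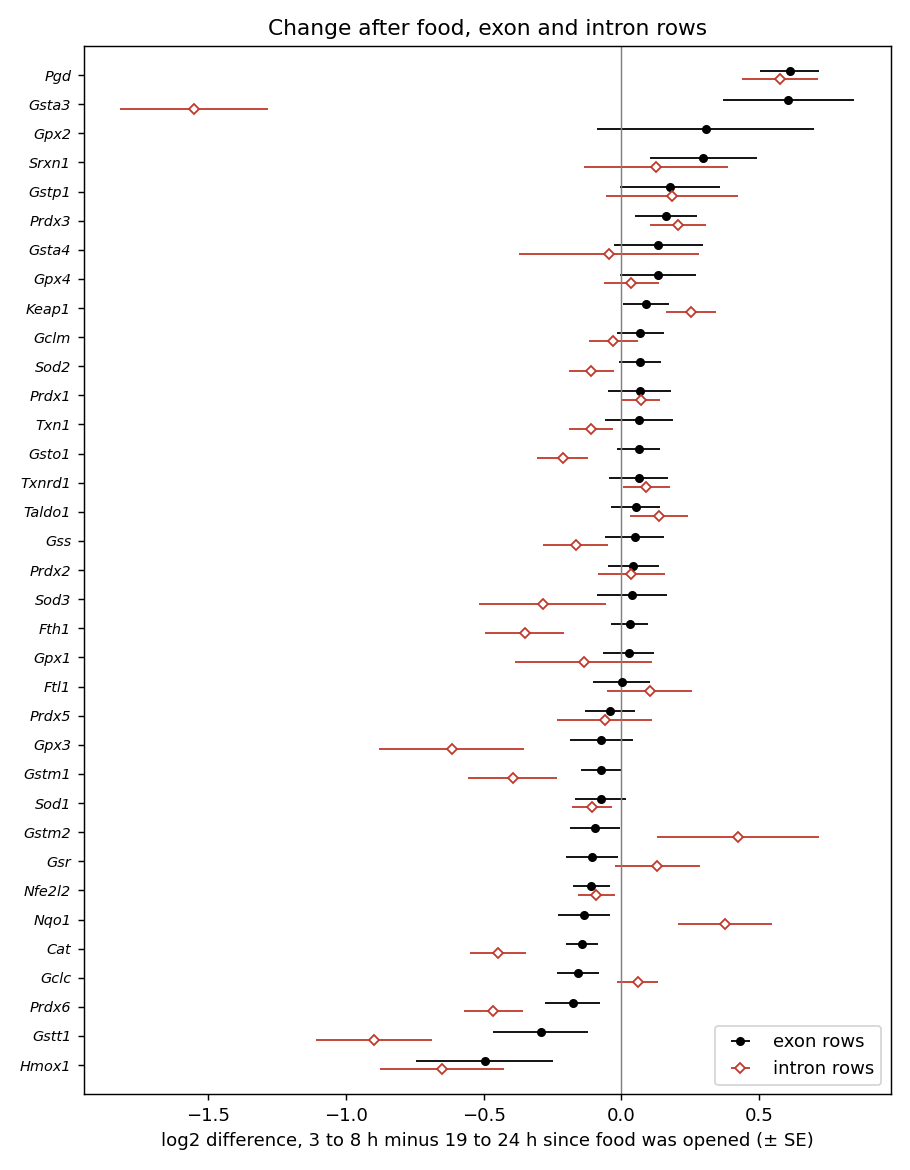
Log2 difference of 35 members between 3 to 8 h and 19 to 24 h since food was opened, with standard errors, for exon rows (filled circles) and intron rows (open diamonds; Gpx2 had too few reads). Pgd stood at 0.61 and 0.57, and Gsta3 at 0.60 for exon rows and -1.55 for intron rows.

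Nqo1 and Prdx6 were the members whose exon reads had a rhythm shared in clock time. Nqo1 encodes a quinone reductase and is a classic NRF2 target. In EN its level from ZT0 to ZT28 was 10.8, 10.8, 9.90, 7.65, 4.36, 7.56, 11.2 and 12.0 CPM, while it was 5.67 to 10.7 CPM in ED (median 7.60) and 4.70 to 8.53 CPM in MD (median 6.68). EN ZT16 was the lowest and EN ZT28 the highest of all 24 libraries. Its shared clock time amplitude was 0.37 ± 0.0676 (log2) with a peak 18.6 ± 0.698 h after that of Dbp (adjusted p = 0.00978), and that curve took 60.7% of the variation within groups. Prdx6 encodes a peroxiredoxin that reduces phospholipid hydroperoxides. It was highest at ED ZT12 (216 CPM) and EN ZT8 (207 CPM), and in MD it ranged from 108 to 137 CPM. Its clock time amplitude was 0.20 ± 0.0413 with a peak at 23.9 ± 0.812 h (adjusted p = 0.0174; 54.1% of the variation), and it did not pass without ED ZT12 or without EN ZT8 (adjusted p up to 0.0714). Prdx6 passed with the L code as a term (adjusted p = 0.0434) and Nqo1 did not (adjusted p = 0.107). Neither passed with sampling time as a replicate block (adjusted p = 0.170 for Nqo1 and 0.111 for Prdx6) or without the second day (0.0736 and 0.177), and Prdx6 did not without the ED ZT24 and EN ZT0 libraries (0.0602). These 2 of 36 compare with 2.74% of all genes, both by edgeR. DESeq2 called 7 members, and its share of all genes is not given. A rhythm shared in ZT was found for 0 of 36 (0.668% of all genes; 12 at an unadjusted p under 0.05, or 33.3% against 14.7% of all genes; 0 by DESeq2).

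Nqo1 also passed in EN alone, with its peak at ZT 3.60 (log2 amplitude 0.58 ± 0.107, adjusted p = 0.0308), but not without any 1 of 6 EN libraries. Gsta3 and Nqo1 thus peaked in EN at ZT 16.6 and ZT 3.60. The ED peak of Pgd was at ZT 8.89 (log2 amplitude 0.54 ± 0.119, adjusted p = 0.0325), a call lost without any 1 of 6 ED libraries. Txnrd1, the gene of cytosolic thioredoxin reductase, was at 84.2, 107, 102, 81.0, 65.6, 89.95, 110 and 118 CPM in MD, where it peaked at ZT 3.97 (amplitude 0.32 ± 0.0676, adjusted p = 0.0469). That call was lost without any 1 of 20 libraries, with adjusted p-values of up to 0.274. Over the 36 members, the food time curve took the most variation for 8, the ZT curve for 15 and the clock time curve for 13, and of all these curves only those of Gsta3, Pgd, Nqo1 and Prdx6 named above passed.

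**Figure D4:**
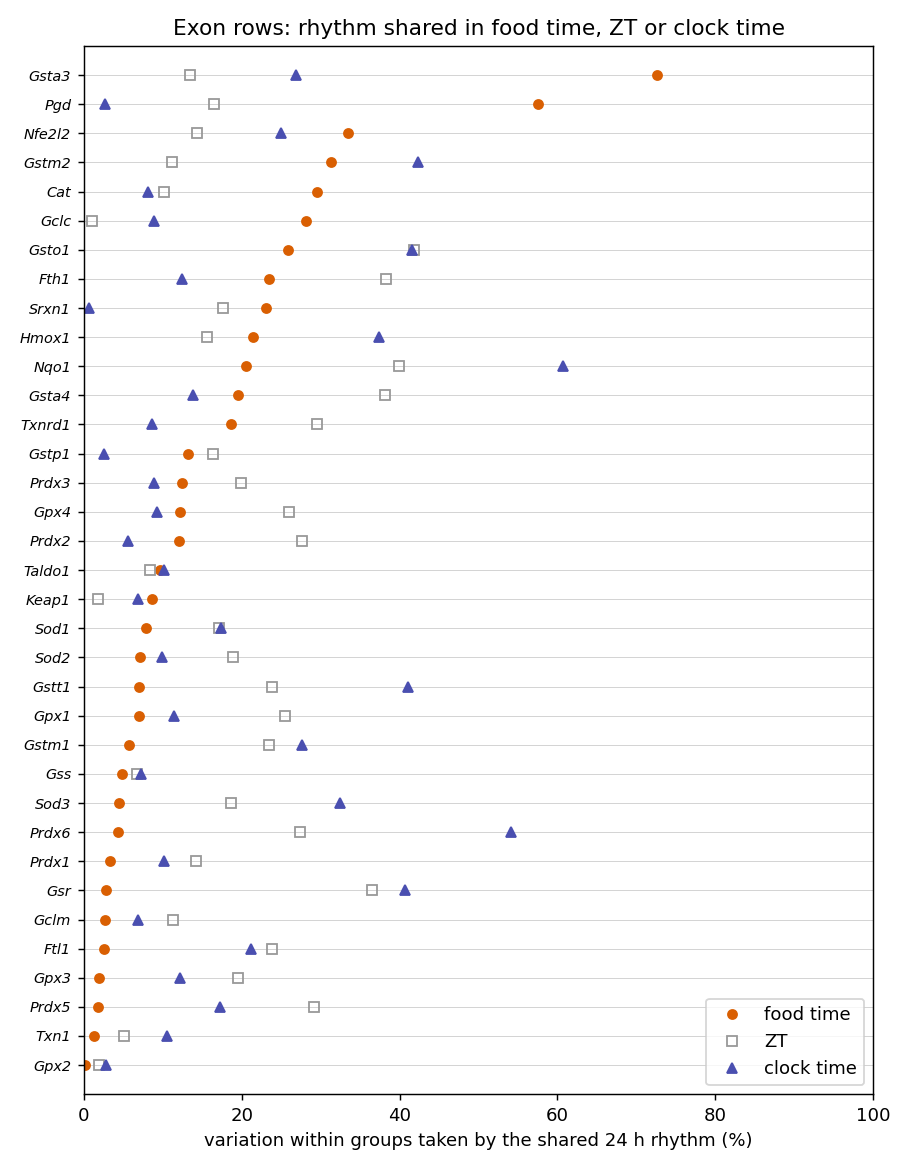
Share of the variation within feeding groups, in percent, taken by a 24 h rhythm shared in food time, ZT or clock time for exon rows of 35 members. Gsta3 (72.6%) and Pgd (57.6%) stood highest on food time, Nqo1 (60.7%) and Prdx6 (54.1%) on clock time.

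Intron rows of 35 members passed the filter, and 6 of 35 differed after food, against 8.51% of all genes with intron rows. Beside Gsta3, Pgd and Hmox1 these were Cat, Gstt1 and Prdx6. Cat, the catalase gene, was at 75.1 ± 6.52 CPM after food and 97.8 ± 15.2 CPM before it (log2 difference -0.45 ± 0.101, adjusted p = 0.00467), while its exon difference was -0.14 ± 0.0575 (adjusted p = 0.187). Gstt1, a theta class glutathione transferase gene, was at 9.02 ± 3.05 against 15.1 ± 6.26 CPM (-0.90 ± 0.210, adjusted p = 0.00692; exon -0.29 ± 0.172). Prdx6 was at 32.5 ± 5.35 against 40.8 ± 4.18 CPM (-0.47 ± 0.107, adjusted p = 0.00628; exon -0.18 ± 0.0992). The intron and exon changes had the same sign in these genes, unlike in Gsta3, and their intron minus exon differences did not pass. Cat alone passed with the L code as a term (log2 -0.78, adjusted p = 0.0122).

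In clock time, intron rows of 5 of 35 members had a shared rhythm, against 4.14% of all genes. Gstt1 (log2 amplitude 0.53 ± 0.0975, adjusted p = 0.00473), Prdx6 (0.24 ± 0.0576, adjusted p = 0.0308) and Gsto1, an omega class transferase gene (0.24 ± 0.0386, adjusted p = 0.00590), peaked 0.935 to 1.76 h after Dbp, and Gsta3 at 3.38 h. The call of Prdx6 was lost without any 1 of 9 libraries. Gstm2, a mu class transferase gene, peaked at 14.6 h (0.41 ± 0.120, adjusted p = 0.0468), which was lost without any 1 of 16 libraries. In food time 0 of 35 passed (0.322% of all genes; 10 at an unadjusted p under 0.05; DESeq2 called 1), and in ZT 0 of 35 (0.370%; 9 unadjusted; 0 by DESeq2). In EN alone Gsta3 and Gstt1 passed, at 2 of 35 (0.898% of all genes), with peaks at ZT 12.4 and ZT 10.2, and Gstt1 was lost without any 1 of 5 EN libraries. In ED and MD 0 of 35 did (0.453% and 0.836% of all genes; 7 and 9 unadjusted; 1 and 1 by DESeq2). For intron rows the share of all genes at an unadjusted p was not computed, so the unadjusted counts cannot be set against a background. Departure from food time passed for 1 of 35 (Gsta3; 1.57% of all genes), and from ZT for 2 of 35 (Gsta3 and Gstt1; 0.583%).

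Beside the timing, the exon level of many members was lower in MD. Between MD and ED 17 of 36 differed (1 higher, 16 lower; 23.0% of all genes differed), and between EN and MD 21 of 36 (20 higher in EN, 1 lower; 30.2%). Between EN and ED 0 of 36 differed by edgeR (0% of all genes; 0 members by DESeq2). At an unadjusted p under 0.05 there were 4 members by edgeR, or 11.1% against 6.11% of all genes. The median log2 difference of the members was -0.25 for MD minus ED and 0.34 for EN minus MD, while over all genes it was -0.0057 and -0.0049. Ftl1, the ferritin light chain gene, was at a mean of 469 CPM in MD, 684 in ED and 688 in EN (MD minus ED -0.58 ± 0.0891 on the log2 scale, adjusted p = 0.000144). Prdx6 was at 123, 158 and 165 CPM (-0.42 ± 0.0718, adjusted p = 0.000323) and Taldo1 at 101.2, 131 and 142 CPM (-0.40 ± 0.0842, adjusted p = 0.00130). Gsta3 was at 17.2, 25.4 and 29.2 CPM (-0.50 ± 0.132, adjusted p = 0.00500). Sod1, the gene of the cytosolic superoxide dismutase, differed by -0.36 ± 0.0875 (adjusted p = 0.00275), Prdx1 by -0.49 ± 0.123 (adjusted p = 0.00324) and Prdx5 by -0.36 ± 0.0926 (adjusted p = 0.00383). Gstp1, a pi class transferase gene, differed by -0.62 ± 0.168 (adjusted p = 0.00640) and Txn1, the thioredoxin gene, by -0.42 ± 0.124 (adjusted p = 0.00996). Gstm1, a mu class transferase gene, was the exception, at 57.7, 49.97 and 47.1 CPM (0.20 ± 0.0724, adjusted p = 0.0491). For EN minus MD, the 10 members of smallest p were Ftl1 (0.59 ± 0.0891), Prdx6 (0.46 ± 0.0718), Gsta3 (0.77 ± 0.132), Taldo1 (0.50 ± 0.0842), Sod1 (0.48 ± 0.0875), Gpx4 (0.79 ± 0.147), Prdx5 (0.50 ± 0.0926), Gpx3 (0.60 ± 0.116), Prdx1 (0.63 ± 0.123) and Fth1 (0.37 ± 0.0655), with adjusted p from 8.23e-05 to 0.000529.

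On intron rows fewer members differed in mean level, in tests added after the values were seen. Most calls between EN and MD were higher in EN, as on exon rows, while those between MD and ED were not mostly lower in MD. Between MD and ED 3 of 35 members differed (2 higher, 1 lower; 15.5% of all genes): Sod3, which encodes the secreted superoxide dismutase, was at 2.64 against 1.38 intron CPM (adjusted p = 0.000565), Gstt1 at 14.9 against 9.07 (adjusted p = 0.0252) and Prdx2 at 10.5 against 13.0 (adjusted p = 0.0360). Gstt1 was thus higher in MD by intron reads and lower by exon reads. Between EN and MD 8 of 35 differed (7 higher in EN, 1 lower; 14.7% of all genes). Without MD ZT16 both counts were 1, and without ED ZT12 the first was 1. The second was 2 without EN ZT12, 3 without EN ZT16, and 4 without MD ZT12, EN ZT8 or EN ZT20, while the first was 5 without ED ZT16.

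By role, on exon rows, 5 of the 6 thioredoxin and peroxiredoxin genes were lower in MD than in ED (Txn1, Prdx1, Prdx2, Prdx5 and Prdx6, with Prdx3 at an adjusted p of 0.0722), as were Gpx3, Gpx4, Sod1, Taldo1, Gsta3, Gstm2, Gstp1, Gstt1, Ftl1 and Fth1, among others. The 6 genes under the label of NRF2 target (Nqo1, Hmox1, Srxn1, Txnrd1, Gclc and Gclm) did not differ past the threshold in that pair. Nor did Nfe2l2 (adjusted p = 0.0526) and Keap1. Members under other roles can be NRF2 targets too. In the same libraries the adipocyte, fibroblast and immune marker sums were lower in MD (805.9, 36530 and 765 CPM at the median, against 1411, 56230 and 1013 in ED) and the skeletal muscle sum was higher (65570 against 33000 CPM). The part of these markers in the result was not tested. With the L code as a term 0 members differed in either pair. Without MD ZT16, 9 members differed between MD and ED, and without ED ZT12, 10. The deposited RPKM values gave 11 for MD and ED and 15 for EN and MD.

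**Figure D5:**
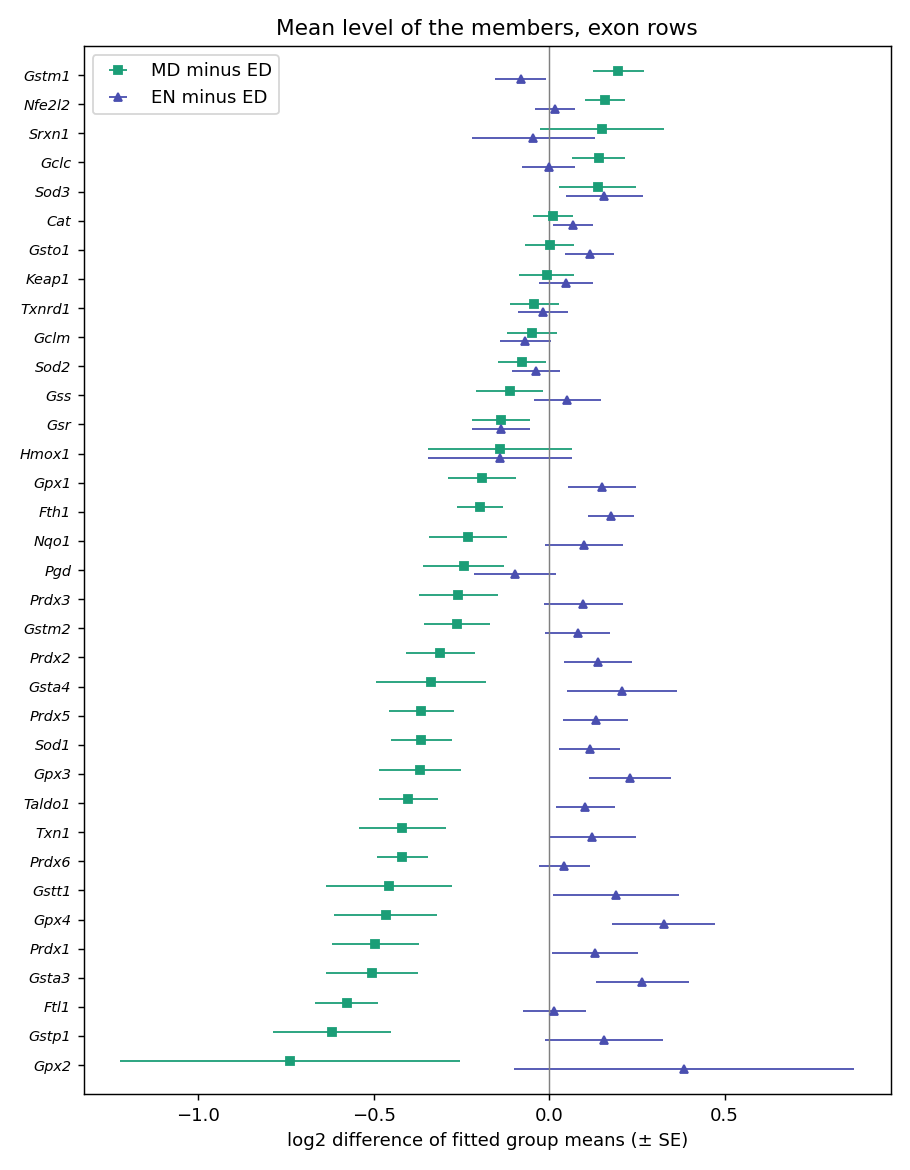
Log2 difference of the fitted group means, with standard errors, of MD minus ED (squares) and EN minus ED (triangles) for exon rows of 35 members. MD values run from -0.74 for Gpx2, which was read at only 0.05 to 2.75 CPM, to 0.20 for Gstm1.

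Per length, the ferritin chains were the most abundant members and Gpx2 the least. The median deposited RPKM was 358 for Ftl1 and 306 for Fth1, 186 for Gpx4, which reduces lipid hydroperoxides, 148 for Prdx1, 130 for the secreted Gpx3 and 92.7 for Gpx1. Cat stood at 92.5, Taldo1 at 73.0, Prdx2 at 66.3, Prdx6 at 64.5, Prdx5 at 54.8, Sod1 at 43.7, Hmox1 at 42.4 and Txn1 at 40.8. Txnrd1, Gstm1, Sod2, Nfe2l2, Pgd, Prdx3, Gsto1 and Gstm2 lay between 20.1 and 29.4, in that order. Keap1 was at 18.4, Srxn1 at 16.1, Gsta3 at 13.1, Gclc at 12.4 and Gsr, the glutathione reductase gene, at 11.5. Sod3, Gclm, Gstp1, Gstt1, Gss, Nqo1, Gsta4 and Gpx2 were between 0.593 and 9.74. The spread over the 24 libraries, as SD of log2 CPM, was 0.90 for Gpx2, 0.60 for Gsta3, 0.12 for Cat and 0.13 for Keap1, with a median of 0.269 over the members and 0.222 over all genes. The value of Gpx2 rests on 460 exon reads over all libraries, at 0.05 to 2.75 CPM.

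The genes most like Gsta3 over the 24 libraries, by Pearson's r of log2 CPM, were Thrsp (0.804), Rap1gds1 (0.780), Bcat2 (0.778), Adh5 (0.768) and Paqr9 (0.767). These are descriptions over libraries that share feeding groups and depth. Thrsp, a gene of fat synthesis that responds to carbohydrate, had fitted peaks at ZT 7.21, ZT 9.69 and ZT 16.1 (ED, MD and EN), and Paqr9 at ZT 5.97, ZT 9.07 and ZT 16.2. For Thrsp and Paqr9 the ED rhythm passed by edgeR (adjusted p = 0.0301 and 0.0147) and those of MD and EN did not. Rap1gds1, Bcat2 and Adh5 passed in no group (adjusted p from 0.305 to 0.756). These genes were picked by their r with Gsta3, so peak times like its own follow in part from that choice. Among the members, r with Gsta3 was highest for Sod1 (0.628), both being lower in MD, and about the group means it was highest for Gsto1 (0.592; Sod1 0.449), while the adipocyte marker sum had 0.607.

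Of 95 further genes of the same pathways 86 were measured, and 3 were higher and 8 lower after food, where 2.39% and 2.46% of all genes were. Chac1, which encodes an enzyme that degrades glutathione and is induced by amino acid shortage, was at 3.90 ± 1.25 CPM after food and 11.4 ± 5.13 CPM before it (log2 difference -1.32 ± 0.358, adjusted p = 0.0222). Txnip, which encodes an inhibitor of thioredoxin, was at 554 ± 175 against 1223 ± 358 CPM (-1.26 ± 0.195, adjusted p = 0.000215). Osgin1, an NRF2 target gene, was at 7.11 ± 2.90 against 3.91 ± 1.03 CPM (0.99 ± 0.236, adjusted p = 0.00782), and had a food time rhythm with a peak at 4.96 h (adjusted p = 0.0317). Gstt2 (-0.81 ± 0.238, adjusted p = 0.0328), Aox1 (-0.43 ± 0.0960, adjusted p = 0.0106) and Maff, a small MAF gene (-0.41 ± 0.121, adjusted p = 0.0403), were lower after food. So were Ephx1 (-0.40 ± 0.0912, adjusted p = 0.0117), Bach1 (-0.27 ± 0.0616, adjusted p = 0.0212) and H6pd (-0.40 ± 0.1185, adjusted p = 0.0281). Beside Osgin1, Cbs (0.37 ± 0.108, adjusted p = 0.0395) and Me1 (0.35 ± 0.113, adjusted p = 0.048) were higher. In clock time 7 of the 86 had a shared rhythm, in food time 2 and in ZT 1, against 2.74%, 1.29% and 0.668% of all genes.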

How the data were processed

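The deposited table of counts holds whole-number reads per gene model in separate exon, intron and antisense rows, per the file headers, and was used without change. A second deposited table holds RPKM made by the authors with cqn, per the file's name. The labels' protocols name a stranded total RNA kit, and the submitters' processing notes name TopHat2, SAMtools, HOMER and mm10, without versions. No source names the counting program or how it treated reads with several matches, so genes with close copies or pseudogenes, among them the Gst genes, Ftl1, Fth1 and Prdx1, are uncertain.

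Exon and intron rows were each filtered by filterByExpr (minimum count 10, minimum total 15) and scaled by TMM, and tested with edgeR 4.0.16 in R 4.3.3 (quasi-likelihood F test, Benjamini-Hochberg over all genes, threshold 0.05). Estimates ± SE are least squares on log2 CPM (prior count 2). The rhythm model had a mean, cosine and sine of 24 h per group (15 residual degrees of freedom). Shared rhythms had 19 and the food model, with terms for feeding group, sampling hour and the 8 libraries at 11 to 16 h, had 14. Alternatives were DESeq2 1.42.0, limma 3.58.1 on log2(RPKM + 1), other scaling, no filter (genes read in at least 6 libraries), a block for sampling time and libraries left out. The steps were tested on simulated data. Members and lists were chosen with earlier results of these data known, and Gsta3 was named beforehand as following food. Counts cover all 36 members, of which 1 is not reported here on its own. The others are named, and those past a threshold are given with statistics, at most 10 in a comparison, smallest p first. Libraries of equal sampling time were not paired (median correlation 0.0712 over 24 pairs, -0.153 to 0.245). Columns belonging to no sample numbered 0.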

Additional observations from a re-analysis of the deposited data

Results flagged for a closer look

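The rhythm of Gsta3 differed between feeding groups by a test of the difference itself, with an adjusted p by edgeR of 0.000686 (EN against ED) and of 0.00255 (EN against MD). The test is in ZT, so peaks at equal hours after food also count as a difference. Neither difference passed with the L code as a term. Of 108 combinations of a member and a feeding group, 7 had a library far from the other 7 of its group by Dixon's criterion, which chance meets in about 1 in 20. In ED ZT28, Srxn1 was at 84.39 CPM, with the next library at 41.3, and Txnrd1 at 118.3 CPM, with the next at 98.4. Fth1 was at 645.2 CPM in ED ZT12, with the next at 539. In EN ZT12, Sod1 was at 142.7 CPM, with the next at 101.3, and Gstt1 at 24.72 CPM, with the next at 14.6. Txn1 was low in EN ZT4, at 62.48 CPM, with the next at 84.8. Sod3 was at 26.74 CPM in MD ZT16, with the next at 20.3.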

How the results depend on the processing

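Of the member values other than counts, 211 kept their side of the threshold under the alternatives that left out no single library, 57 no longer passed and 3 passed newly, and none changed direction. The counts below are of members called, and where they moved the cause was not tested. Deviations of libraries of equal sampling time had a median correlation of 0.0712, against -0.0102 for pairs of different sampling times. With sampling time as a replicate block, the EN against ED rhythm gave 2 (Gsta3 and Pgd), shared food time 4 (Gstm2 and Nqo1 added) and shared clock time 0. On intron rows it gave 2 for food time (Gsta3 and Gstt1), 2 for clock time and 0 for departure from food time.

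With the L code as a term the count was 0 for the ED rhythm, for the mean level in MD against ED and in EN against MD, for the rhythm in EN against ED and in EN against MD, higher after food, shared food time and intron minus exon. It was 1 for the EN rhythm and for departure from ZT. On intron rows it was 1 after food and for clock time, and 0 for the EN rhythm, for departure from food time and from ZT and for the mean level in MD against ED and EN against MD.

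Without the second day the count was 0 for the ED and MD rhythms and for clock time, and 1 for the EN rhythm and for departure from ZT. On intron rows it was 1 for the MD rhythm, 0 for the EN rhythm, 0 and 1 for departure from food time and from ZT, 2 for clock time and 2 for the mean level in EN against MD. Without the ED ZT24 and EN ZT0 libraries it was 0 for the MD rhythm, 1 for the EN rhythm and 1 for clock time. On intron rows that gave 1 for the EN rhythm, 0 and 1 for departure from food time and from ZT, and 1 for shared ZT. With each group fitted alone the MD rhythm count was 0.

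DESeq2 gave 2 for the ED and for the MD rhythm, 2 for EN against ED, 3 for departure from food time and 7 for clock time. On intron rows it gave 1 for the ED and for the MD rhythm, 4 for departure from food time and from ZT, and 1 for food time. Limma on RPKM gave 0 for the ED and 2 for the MD rhythm, 11 for the mean level in MD against ED, 1 for departure from food time and 5 for clock time. No share of all genes is given for DESeq2 or limma, so their counts stand without a background.

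Leaving out each library in turn gave 0 to 1 members for the ED rhythm, 0 to 4 for MD and 1 to 2 for EN. Rhythm differences gave 0 to 1 (MD and ED), 1 to 2 (EN and ED) and 1 to 2 (EN and MD), and mean levels 9 to 18, 0 to 0 and 16 to 22. Departure gave 0 to 2 from food time and 1 to 2 from ZT, and shared rhythms 2 to 2 (food), 0 to 1 (ZT) and 1 to 4 (clock). After food 1 to 1 were higher and 0 to 0 lower. Intron rows gave 0 to 0, 0 to 1 and 0 to 2 for the rhythms of ED, MD and EN, 0 to 2 and 1 to 2 for the departures, 5 to 7 after food, 0 to 0, 0 to 0 and 3 to 6 for food, ZT and clock time, 1 to 5 and 1 to 8 for the mean level in MD against ED and in EN against MD, and 1 to 2 for intron minus exon. With 1 pool per group and time, the spread of single pools limits what can be detected, and Gsta3 intron reads rest on as few as 37 reads.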
